A study of Mus musculus with 15 samples.

Results

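The genes described here encode 10 mouse enzymes that act on retinol or retinaldehyde, and their transcripts were counted by RNA sequencing in a pancreatic acinar cell line given ligands of the retinoid receptors. They were chosen by name and function, with earlier results of these data known. They are 10 of the 43432 gene identifiers counted: Dhrs3, Rdh10, Rdh11, Rdh13, Rdh14, Dhrs9, Adh1, Adh5, Adh7 and Retsat. The filter on low counts was passed by 8 of the 10. Dhrs9 and Adh7, with 3 and 13 reads over all 15 libraries, did not pass it and were not tested. Transcript levels of Dhrs3 and Adh1 were higher in every library given a ligand of the retinoic acid receptors than in every library given none. So were those of 0.0717% of all genes tested. The calls of Dhrs3 and Adh1 were close to the threshold in the fit without a term for the library set, described below. No change was called for the other 6 enzymes.

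Cells take up vitamin A as retinol. Retinol dehydrogenases of the short-chain family and some alcohol dehydrogenases oxidise it reversibly to retinaldehyde, and retinaldehyde dehydrogenases then convert retinaldehyde irreversibly to retinoic acid, the ligand of the retinoic acid receptors (RAR). Reductases run the first step backwards and so return retinaldehyde to the retinol pool. RDH10 is the main oxidising enzyme of the mouse embryo and DHRS3 the reductase set against it.

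The cell line, 266-6, derives from an acinar tumour of the mouse pancreas. Each group had 3 libraries. The treatments were AM580 (a selective agonist of the α form of RAR), CD3254 (an agonist of the retinoid X receptors, RXR, which are the partners of RAR on DNA), both agonists jointly, 9-cis retinoic acid (a ligand of RAR and RXR alike) and the vehicle DMSO. All cells, those given DMSO included, were first held for 24 h in stripped medium and were then incubated for 24 h with ligand or vehicle. Serum is recorded at 10% for every sample. The labels give no ligand concentrations and do not tell whether replicates were cultured apart, and p-values thus measure only a spread between these libraries that may be technical. In a bulk sample, fewer cells with a transcript and less of it per cell cannot be told apart.

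Replicate 3 of 9-cis retinoic acid had 14600962 reads on genes, and the other 14 libraries had 28501170 to 46801058. Of the acinar markers, Cpa1, Cela1, Ctrb1, Prss2, Ptf1a, Rbpjl and Nr5a2 were at 19.6 CPM or more in every library, whereas Amy2a5, Cpb1, Ctrl and Pnlip stayed at or near 0. The first principal component of all genes, with 48.3% of the variance, set 5 libraries, with 1 per treatment, apart from the remaining 10. The set of 5 holds replicate 1 of AM580, of CD3254, of 9-cis retinoic acid and of DMSO, and replicate 2 of the joint treatment. The summed level of 10 genes known to respond to low oxygen lay between 5268 and 7488 CPM in this set and between 937.7 and 1339 CPM in the set of 10. Levels are given as CPM, a gene's reads scaled to a common library size. Each comparison was fitted across all 16736 tested genes without a term for the library set and again with it. Because these very counts defined the sets, that fit rests on a term drawn from the data it tests.

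Of the promoter sequences below, Dhrs3 and Adh1 are shown as the genes that rose with RAR ligands, and Rdh11 and Retsat as tested, uncalled genes whose windows hold a half-site. RAR and RXR bind pairs of a six-base half-site, and the letters searched on both strands were AGGTCA with its variant AGTTCA, and likewise GGGTCA with its variant GGTTCA, singly and as direct repeats with spacers of 1, 2 or 5 bases. Windows of 250 bases before to 50 after each RefSeq transcript start on GRCm38.p6 were held for 8 of the 10 genes, with Rdh10 and Rdh13 the exceptions. The sequences run 5′ to 3′ on the gene's strand, stop where an exon of the gene begins, and have the half-site in capitals where one is present.
Dhrs3 (chr4:144892577-144892826, plus strand): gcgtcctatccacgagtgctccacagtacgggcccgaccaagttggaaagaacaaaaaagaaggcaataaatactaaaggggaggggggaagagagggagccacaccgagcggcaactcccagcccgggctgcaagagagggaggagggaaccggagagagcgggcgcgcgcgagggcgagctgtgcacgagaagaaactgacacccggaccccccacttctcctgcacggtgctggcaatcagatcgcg
Adh1 (chr3:138277335-138277493, plus strand): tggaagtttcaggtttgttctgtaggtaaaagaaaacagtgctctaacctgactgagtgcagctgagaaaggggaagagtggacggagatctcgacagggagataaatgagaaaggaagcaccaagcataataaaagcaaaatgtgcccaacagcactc
Rdh11 (chr12:79190962-79191211, minus strand): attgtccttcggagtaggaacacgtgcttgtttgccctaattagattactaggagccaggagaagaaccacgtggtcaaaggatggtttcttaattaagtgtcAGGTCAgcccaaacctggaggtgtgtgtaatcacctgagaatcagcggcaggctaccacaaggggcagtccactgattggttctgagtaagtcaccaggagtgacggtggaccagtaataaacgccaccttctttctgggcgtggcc
Retsat (chr6:72598352-72598474, plus strand): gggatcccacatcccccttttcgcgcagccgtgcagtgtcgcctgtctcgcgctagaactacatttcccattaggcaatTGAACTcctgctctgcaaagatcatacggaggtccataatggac
The Dhrs3 and Retsat stretches end at the base before the first exon of the gene in GENCODE, and the Adh1 and Rdh11 stretches are intronic in a longer transcript model and lie before an internal start. None of the 3 windows of Dhrs3 and not the single window of Adh1 held a half-site. The Rdh11 stretch held AGGTCA at positions -147 to -142 from the start, and the Retsat stretch held TGAACT, the reverse complement of AGTTCA, at positions -171 to -166. Another Rdh11 window, Dhrs9 and Adh7 also held a half-site, whereas Rdh14 and Adh5, tested and uncalled like Rdh11 and Retsat, held none. None of the 8 genes held a direct repeat with those spacers. A half-site was present in 43.7% of the 32851 windows of all genes, and repeats with spacers of 1, 2 and 5 bases in 0.222%, 0.268% and 0.0974% of them. The presence or absence of these letters in a window of 300 bases says nothing about binding there or elsewhere in the gene.

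Per kilobase of exon, the scale on which different genes can be compared, the alcohol dehydrogenase genes Adh5 and Adh1 had the highest mean levels. Under DMSO the level of Adh5 averaged 33.6 ± 3.56 CPM per kb and that of Adh1 averaged 21.9 ± 5.98 CPM per kb (SD, n = 3 each). Retsat followed at 14.1 ± 3.52 CPM per kb and Rdh11 at 13.8 ± 1.14 CPM per kb. Rdh14 averaged 6.35 ± 1.08 CPM per kb, Rdh13 3.36 ± 0.820, Rdh10 3.29 ± 0.512 and Dhrs3 1.30 ± 0.458 CPM per kb. The ranges of the 3 libraries overlapped between Adh1 and Retsat, between Retsat and Rdh11, and between Rdh13 and Rdh10. Under DMSO the reductase Dhrs3 was thus the least abundant of the 8 enzymes tested, and its range lay below that of Rdh10.
The order was another one under RAR ligands. With the joint treatment Adh1 came first at 53.9 ± 4.97 CPM per kb, above Adh5 at 36.4 ± 8.28 CPM per kb, and their ranges did not overlap. This order rests on the exon lengths used, 2233 bases for Adh1 and 5408 bases for Adh5. These lengths merge the exons of all transcript models of a gene. In CPM, before that division, Adh5 lay above Adh1 in every library, at 135.0 to 298.7 against 33.7 to 131.8 CPM. Dhrs3 stood in the fifth place with the joint treatment at 11.9 ± 5.74 CPM per kb, and its range overlapped that of Retsat and lay above that of Rdh14. With AM580 alone Dhrs3 averaged 7.97 ± 5.15 CPM per kb and with 9-cis retinoic acid 8.94 ± 2.98 CPM per kb, overlapping Rdh14 in both. With CD3254 it remained the eighth, at 2.02 ± 1.46 CPM per kb, and its range overlapped that of Rdh10.

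**Figure D1:**
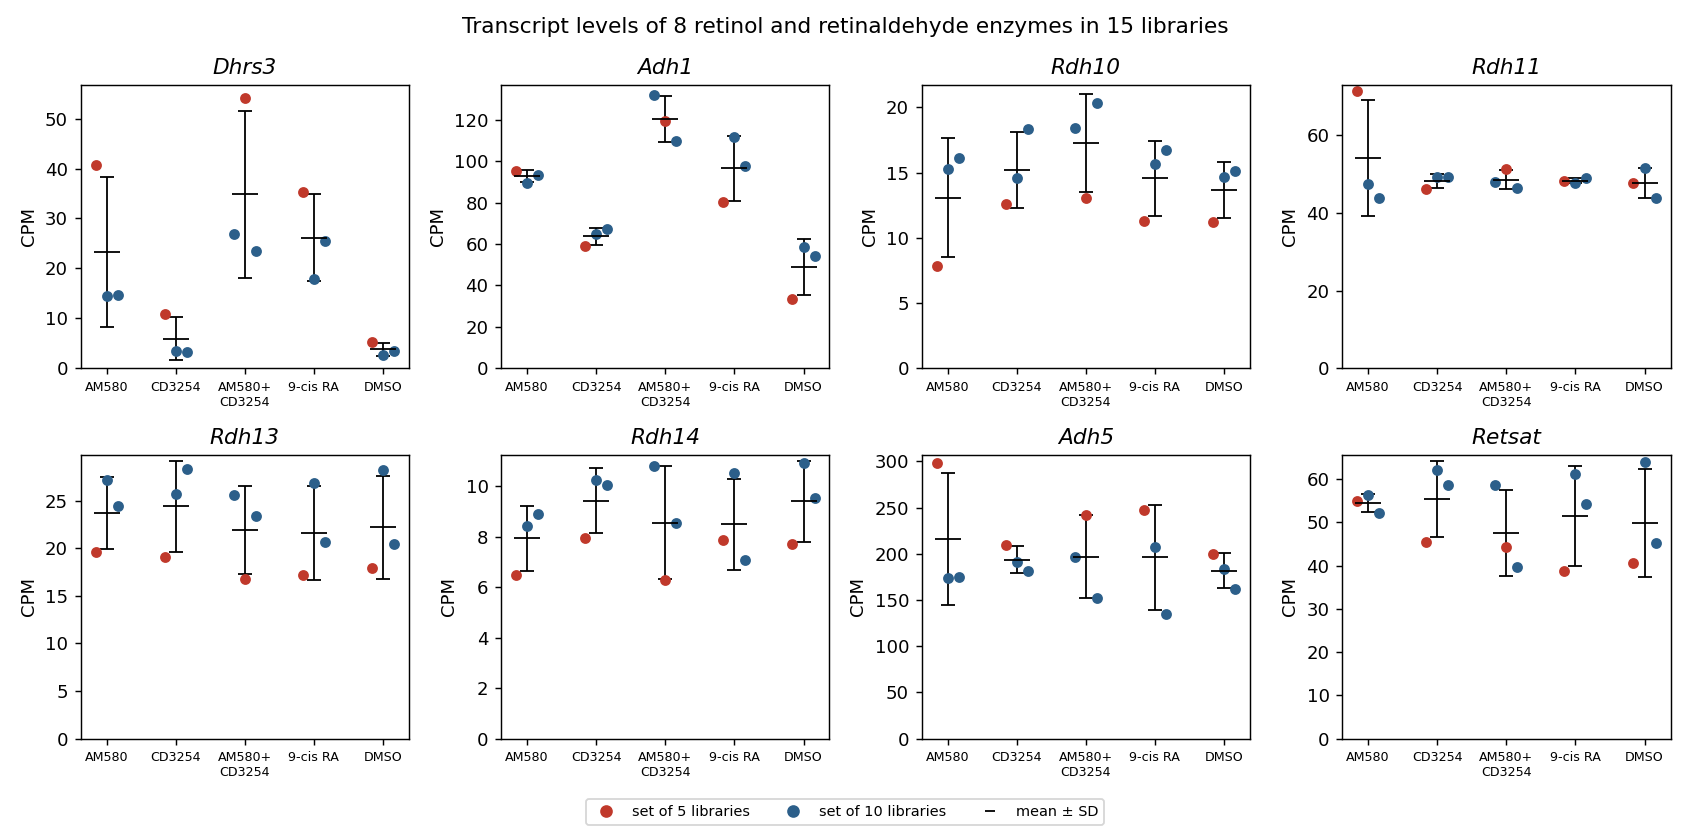
CPM of the 8 tested enzymes in each of the 15 libraries, by treatment, with the mean and SD of 3 libraries as bars. Each panel has its own axis from 0, and colour marks the library set. Dhrs3 and Adh1 are lowest with CD3254 and DMSO, and within each treatment the library of the set of 5 has the highest Dhrs3.

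Dhrs3 (ENSMUSG00000066026, chromosome 4, 144892827 to 144928209, plus strand) encodes the short-chain reductase that returns retinaldehyde to retinol. Its level was 40.7, 14.6 and 14.7 CPM in the 3 libraries given AM580. It was 10.9, 3.57 and 3.31 CPM with CD3254 and 26.8, 54.1 and 23.5 CPM with the joint treatment. With 9-cis retinoic acid it was 35.2, 17.8 and 25.5 CPM, against 5.25, 2.60 and 3.54 CPM with DMSO. The AM580, joint and 9-cis retinoic acid libraries all lay above the 3 DMSO libraries, whereas CD3254 and DMSO overlapped. Of all genes tested, 2.19%, 2.39% and 2.15% had the AM580, the joint and the 9-cis retinoic acid libraries wholly above DMSO. Within each treatment the highest value came from the library of the set of 5.

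Adh1 (ENSMUSG00000074207, chromosome 3, 138260991 to 138290698, plus strand) encodes the class I alcohol dehydrogenase, which oxidises ethanol and retinol and in the mouse clears excess retinol. Its level was 95.01, 89.4 and 93.3 CPM with AM580, and 59.1, 64.6 and 67.4 CPM with CD3254. It was 131.8, 119.3 and 109.7 CPM with the joint treatment. With 9-cis retinoic acid it was 80.4, 111.4 and 97.8 CPM, against 33.7, 58.6 and 54.4 CPM with DMSO. Each of the 4 ligand treatments lay wholly above DMSO, in the case of CD3254 by a gap of less than 1 CPM, and the joint treatment lay wholly above AM580. Among all genes tested, 2.36% had CD3254 libraries wholly above DMSO and 2.71% had joint libraries wholly above AM580, so separation of 3 libraries from 3 was common. An antisense gene, Gm16559, overlaps Adh1 with 159 reads against 46916 for Adh1. With the strand setting of the counting not given in the sources used here, reads of the pair may not be told apart.

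Whether a RAR ligand was present, with or without RXR activation, was asked by setting the 9 libraries given AM580, the joint treatment or 9-cis retinoic acid against the 6 given CD3254 or DMSO. Dhrs3 averaged 28.1 CPM in the 9 libraries and 4.85 CPM in the 6. Without the library set term its log2 fold change was 2.55 ± 0.38 (SE), a 5.84-fold rise (edgeR quasi-likelihood test, Benjamini-Hochberg FDR = 0.0478). Adh1 averaged 103.1 CPM against 56.3 CPM, a log2 fold change of 0.88 ± 0.13 and a 1.84-fold rise (edgeR FDR = 0.0478). These were 2 of the 8 enzymes tested, while 0.0359% of all genes were called. Both genes separated the 9 libraries from the 6 without overlap, as did 0.0717% of all genes in the higher direction. With the term, Dhrs3 rose by 2.57 ± 0.15 on the log2 scale (edgeR FDR = 1.07e-06) and Adh1 by 0.89 ± 0.11 (edgeR FDR = 0.00217), with 0.0896% of all genes called.
The calls without the term were close to the threshold. Leaving out any 1 of the 15 libraries ended at least 1 of the 2 calls, with edgeR FDR up to 0.207. Dhrs3 held without AM580 replicate 1 or CD3254 replicate 1 (edgeR FDR = 0.0401 and 0.0109), and Adh1 held without 9-cis retinoic acid replicate 1 (edgeR FDR = 0.0458). With the term both calls held in all 15 cases. In the 10 libraries of the larger set alone Dhrs3 rose by 2.61 on the log2 scale (edgeR FDR = 0.000211) and Adh1 by 0.78 (edgeR FDR = 0.0179), where 0.0777% of all genes were called. In the set of 5, where 3 libraries stand against 2 and no test was run, the differences were 2.49 for Dhrs3 and 1.12 for Adh1. Of the effect of a RAR ligand, the part that differed between the sets, the 5 less the 10, was -0.13 ± 0.30 log2 for Dhrs3 (edgeR FDR = 0.858) and 0.33 ± 0.20 for Adh1 (edgeR FDR = 0.522). That term was added after the data were seen, and edgeR called 0 of 16736 genes for it, with 1587 at an unadjusted p under 0.05.

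**Figure D2:**
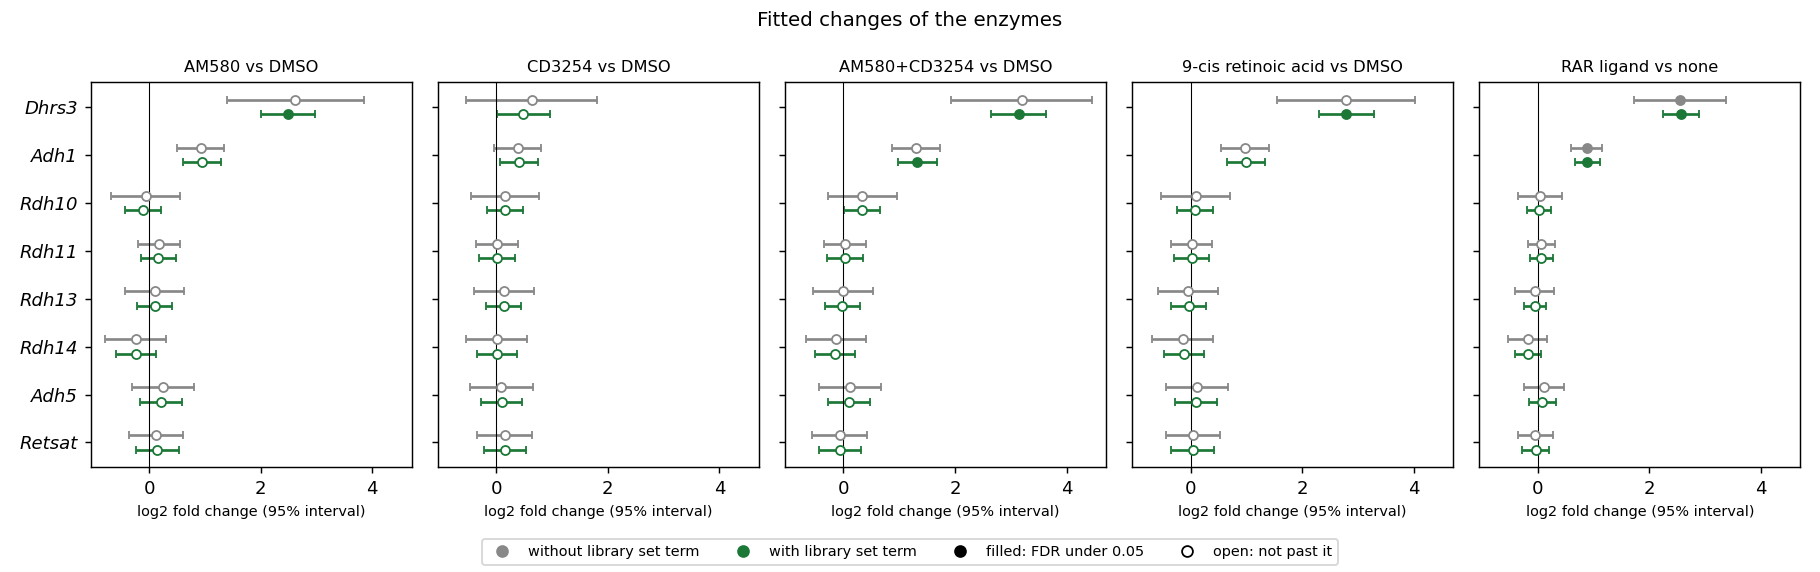
Fitted log2 fold changes of the 8 tested enzymes with 95% intervals, each ligand treatment against DMSO and all RAR ligand libraries against those without, from the fits without (grey) and with (green) the library set term. Filled points have an edgeR FDR under 0.05: Dhrs3 and Adh1 in the last panel in both fits, Dhrs3 in 3 further panels and Adh1 in 1 with the term.

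Set against DMSO one treatment at a time, 0 of 8 enzymes were called by edgeR without the term, beside 0% of all genes with AM580, with CD3254 and with 9-cis retinoic acid, and Dhrs3 and Adh1 had an unadjusted p under 0.05 with AM580, with the joint treatment and with 9-cis retinoic acid. Such a p was found for 204, 251 and 243 of the 16736 genes tested, in that order. DESeq2, run on the same counts without the term, called both genes in those 3 comparisons, and its counts over all genes are given with the alternatives below. These comparisons share the 3 DMSO libraries. With the term and AM580, 1 of 8 enzymes was called against 0.0299% of all genes: Dhrs3 changed by 2.49 ± 0.23 log2 (edgeR FDR = 0.000537), and Adh1 had a fitted value of 0.95 ± 0.16 (edgeR FDR = 0.0936). With 9-cis retinoic acid the call again took in Dhrs3 alone, against 0.0299% of all genes, at 2.79 ± 0.23 log2 (edgeR FDR = 7.47e-05). Adh1 stood at 0.99 ± 0.16 log2 there (edgeR FDR = 0.0577).
With the joint treatment 2 of 8 enzymes were called with the term, against 0.125% of all genes, and 0 without it, against 0.0179% of all genes. Dhrs3 rose 8.82-fold (95% interval 6.25 to 12.4) with an edgeR FDR of 1.19e-05, and Adh1 rose 2.50-fold (1.97 to 3.18) with an edgeR FDR of 0.00263. Rdh10 had a fitted log2 value of 0.33 ± 0.15 with an unadjusted p of 0.0491 (edgeR FDR = 1). Without the term Dhrs3 had an edgeR FDR of 0.162 and Adh1 one of 0.0566.
Within each library set the changes called with the term had the same direction, and their sizes differed. For Dhrs3 the set of 10 gave 2.25 log2 with AM580, 3.03 with the joint treatment and 2.80 with 9-cis retinoic acid (edgeR FDR = 0.0298, 0.000811 and 0.00507), and the single pairs of the set of 5 gave 2.94, 3.35 and 2.74. For Adh1 with the joint treatment the set of 10 gave 1.10 log2 (edgeR FDR = 0.0354) and the set of 5 gave 1.82, the pair in which the DMSO library had the lowest Adh1 of all 15.

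The RXR agonist alone left all 8 enzymes uncalled against DMSO in both edgeR fits and in DESeq2, with 0.0239% of all genes called by edgeR with the term. Without the term no enzyme had an unadjusted p under 0.05, and with it 2 did. Of the 16736 genes tested, 76 did without the term and 332 with it. With the term Dhrs3 had a fitted log2 value of 0.48 ± 0.22 and Adh1 one of 0.40 ± 0.16, each with an edgeR FDR of 1. The value for Dhrs3 was uneven between the library sets, at 1.04 in the single pair of the set of 5 and 0.16 ± 0.23 in the set of 10. Adding AM580 to CD3254 raised Dhrs3 6.31-fold (edgeR with the term, FDR = 0.000103), where 0.0299% of all genes were called, and the change was 2.87 log2 in the set of 10 and 2.31 in the set of 5. Adh1 stood at 0.92 ± 0.16 log2 (edgeR FDR = 0.138) in that comparison.

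Adding CD3254 to AM580 gave no call among the enzymes. With the term the fitted log2 values were 0.65 ± 0.21 for Dhrs3 (95% interval 0.20 to 1.10), 0.38 ± 0.16 for Adh1 and 0.43 ± 0.15 for Rdh10, all with an edgeR FDR of 0.608 and with 0.012% of all genes called. These 3 of the 8 enzymes had an unadjusted p under 0.05 with the term and 0 did without it. Of the 16736 genes tested, 940 did with the term and 229 without it. The interaction sets the log2 effect of AM580 on cells given CD3254 against its effect on cells without CD3254, the first less the second. It was 0.17 ± 0.31 for Dhrs3 (95% interval -0.49 to 0.82, edgeR FDR = 0.963) and -0.03 ± 0.22 for Adh1 (-0.51 to 0.46, edgeR FDR = 0.994). Both intervals include 0, and edgeR called 0 of all genes for this term, with 332 at an unadjusted p under 0.05. For Dhrs3 the set of 10 gave 0.62 ± 0.31 and the set of 5 gave -0.63. 9-cis retinoic acid set against the joint treatment gave -0.35 ± 0.21 log2 for Dhrs3 (95% interval -0.80 to 0.10) and -0.33 ± 0.16 for Adh1 (-0.67 to 0.01), each with an edgeR FDR of 0.888 with the term, with 0.00598% of all genes called. The concentrations behind the treatments are not given, so potency cannot be compared.

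Rdh10 (ENSMUSG00000025921, chromosome 1, 16105774 to 16133734) encodes the dehydrogenase that makes retinaldehyde from retinol. Its level was 7.87, 15.3 and 16.1 CPM with AM580 and 12.6, 14.6 and 18.4 CPM with CD3254. It was 18.4, 13.1 and 20.4 CPM with the joint treatment, and 11.3, 15.6 and 16.8 CPM with 9-cis retinoic acid, against 11.2, 14.6 and 15.1 CPM with DMSO. All treatments overlapped DMSO, and the lowest library of every treatment was that of the set of 5. With a RAR ligand its log2 value was 0.02 ± 0.10 (95% interval -0.19 to 0.23, edgeR with the term, FDR = 0.957). The interval excludes a change of the size seen in Dhrs3, which acts in the opposite direction on the same pair of retinoids.

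Rdh11 (ENSMUSG00000066441, chromosome 12, 79174337 to 79192293, minus strand) and Rdh14 (ENSMUSG00000020621, chromosome 12, 10390772 to 10395562) encode microsomal enzymes that mainly reduce retinaldehyde, and Rdh13 (ENSMUSG00000008435, chromosome 7, 4424770 to 4445649, minus strand) a mitochondrial relative. Rdh11 was 71.4 CPM in AM580 replicate 1 and between 43.8 and 51.7 CPM in the other 14 libraries. Rdh13 ranged from 16.8 to 28.3 CPM and Rdh14 from 6.31 to 10.9 CPM, with every ligand treatment overlapping DMSO. With a RAR ligand and the term the log2 values were 0.06 ± 0.10 for Rdh11, -0.05 ± 0.09 for Rdh13 and -0.17 ± 0.11 for Rdh14, with edgeR FDR of 0.881, 0.891 and 0.828. Dhrs3 was thus the only reductase among the members for which a change with RAR ligands was called in these fits; no difference between the reductases was itself tested.

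Adh5 (ENSMUSG00000028138, chromosome 3, 138443093 to 138455499) encodes the class III enzyme, whose main substrate is the glutathione adduct of formaldehyde. Its level was 298.7, 174.0 and 175.1 CPM with AM580, and 209.5, 190.7 and 180.9 CPM with CD3254. It was 196.4, 241.9 and 152.4 CPM with the joint treatment. With 9-cis retinoic acid it was 247.3, 207.0 and 135.0 CPM, against 200.1, 183.2 and 161.7 CPM with DMSO. Every treatment overlapped DMSO, and the RAR ligand value was 0.09 ± 0.11 log2 (edgeR with the term, FDR = 0.861), beside 0.89 ± 0.11 for its neighbour Adh1. Retsat (ENSMUSG00000056666, chromosome 6, 72598475 to 72608425) encodes an enzyme that saturates a double bond of retinol and so does not interconvert retinol and retinaldehyde. It ranged from 38.7 to 64.1 CPM, with a RAR ligand value of -0.03 ± 0.11 log2 (edgeR with the term, FDR = 0.946). Against DMSO and with the term, the log2 values of the 6 uncalled enzymes lay between -0.24, for Rdh14 with AM580, and 0.33, for Rdh10 with the joint treatment. Over the 8 enzymes the median RAR ligand value with the term was 0.04 log2, with 5 above 0, and over all genes tested it was 0.01 log2, with 51.8% above 0.

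Dhrs9 (ENSMUSG00000027068, chromosome 2, 69380445 to 69404533) encodes a retinol dehydrogenase of epithelia and Adh7 (ENSMUSG00000055301, chromosome 3, 138217760 to 138233382) the class IV alcohol dehydrogenase, which is active on retinol. Dhrs9 had 1 read in AM580 replicate 2, in replicate 3 of the joint treatment and in 9-cis retinoic acid replicate 2, and 0 elsewhere. Adh7 had at most 2 reads in any library. A count of 0 allows up to 3 reads, or 0.0639 to 0.257 CPM depending on the library, so no fold change is given for either. Such limits cover counting error only.

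Adh1 and Adh5 lie in the alcohol dehydrogenase cluster of chromosome 3. Adh4, Adh6a, Adh6b and Adh7, of the same cluster, had 2, 12, 72 and 13 reads over the 15 libraries, too few to test. The protein-coding genes of the count table within 100 kb of Adh1 were Adh6a, Adh6b, Adh7 and 4930579F01Rik, none of which passed the filter. Within 100 kb of Dhrs3 the one such gene was Vps13d, which encodes a lipid transfer protein. With a RAR ligand its log2 value was 0.24 ± 0.22 (edgeR with the term, FDR = 0.828).

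Further genes of the same chemistry gave no call. Of 32 other retinol and retinaldehyde genes listed, 31 were counted and 16 tested, and edgeR called 0 of them in any of the 9 comparisons with or without the term. Over the 9 comparisons, 5 of 144 gene tests had an unadjusted p under 0.05 with the term and 0 without it. Of the 16736 genes tested, 332 to 940 did per comparison with the term and 76 to 251 without it. With a RAR ligand their log2 values ran from -0.42 to 0.20 with the term, with a median of 0.04. Among them Dhrs4, which encodes a peroxisomal reductase of retinaldehyde, lay between 35.5 and 74.3 CPM over the 15 libraries. Akr1a1, which encodes an aldehyde reductase of broad range, lay between 419.2 and 900.2 CPM.
Of 33 other genes of vitamin A uptake, storage, oxidation and signalling, 31 were counted and 22 tested, and edgeR called 2 with a RAR ligand in either fit. Both rose: Cyp26b1, whose cytochrome P450 degrades retinoic acid, and Rarb, which encodes RARβ. With the term the log2 fold change was 4.06 ± 0.22 for Cyp26b1 (edgeR FDR = 7.59e-07) and 2.83 ± 0.30 for Rarb (edgeR FDR = 0.00063). Both were known to rise in these data when the list was drawn up, so their calls are no independent support. The retinaldehyde dehydrogenases, which act on the product of this step, were not called. With the term their log2 values with a RAR ligand were -0.43 ± 0.32 for Aldh1a1, -0.07 ± 0.11 for Aldh1a2 and -0.06 ± 0.13 for Aldh1a3, with edgeR FDR of 0.828, 0.874 and 0.915.
Cyp26b1, unlike the enzymes, was called with the RXR agonist in the fit with the term. With the term it rose with CD3254 against DMSO (log2 2.99 ± 0.37, edgeR FDR = 0.0105) and again when CD3254 was added to AM580 (log2 4.25 ± 0.29, edgeR FDR = 1.39e-05), where no enzyme was called. It fell by 3.03 on the log2 scale with 9-cis retinoic acid against the joint treatment (edgeR FDR = 0.000574). Without the term edgeR called Cyp26b1 in none of these comparisons. Its level with DMSO was low, at 0.307 ± 0.315 CPM (mean and SD), so its fold change against DMSO rests on few reads. The difference between Cyp26b1 and the enzymes in these responses was not itself tested.

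The opposing enzymes Dhrs3 and Rdh10 and the neighbours Adh1 and Adh5 were set against each other within each library, as ratios of CPM per kilobase, without a test. Dhrs3 over Rdh10 was 7.36, 1.35 and 1.30 with AM580 and 1.22, 0.347 and 0.256 with CD3254. It was 2.07, 5.88 and 1.64 with the joint treatment. With 9-cis retinoic acid it was 4.42, 1.62 and 2.16, against 0.664, 0.252 and 0.333 with DMSO. Dhrs3 thus exceeded Rdh10 in all 9 libraries with a RAR ligand and in 1 of the 6 without, the CD3254 library of the set of 5. Adh1 over Adh5 was 0.770, 1.24 and 1.29 with AM580, 0.683, 0.820 and 0.902 with CD3254, and 1.63, 1.19 and 1.74 with the joint treatment. With 9-cis retinoic acid it was 0.787, 1.30 and 1.75, against 0.408, 0.775 and 0.815 with DMSO. Adh1 exceeded Adh5 in 7 of 9 libraries with a RAR ligand, and the exceptions were replicate 1 of AM580 and of 9-cis retinoic acid, both of the set of 5. In the 6 libraries without a RAR ligand Adh5 exceeded Adh1. Which gene of a pair is the higher depends on the exon lengths used, and these cancel where a ratio is compared between treatments. In CPM Adh5 exceeded Adh1 in every library, and Rdh10 exceeded Dhrs3 in replicates 2 and 3 of AM580.
Of the summed level of the 10 enzymes per kilobase, Dhrs3 made up 5.72 ± 2.71% with AM580, 1.86 ± 1.40% with CD3254, 8.18 ± 3.31% with the joint treatment and 6.99 ± 2.50% with 9-cis retinoic acid, against 1.36 ± 0.596% with DMSO (SD, n = 3 each). The share of Adh1 was 31.7 ± 4.07%, 26.0 ± 1.15%, 37.8 ± 2.72% and 33.4 ± 4.86% in the same 4 ligand treatments, against 22.2 ± 4.80% with DMSO. Levels of transcripts do not give the activity of the enzymes.

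**Figure D3:**
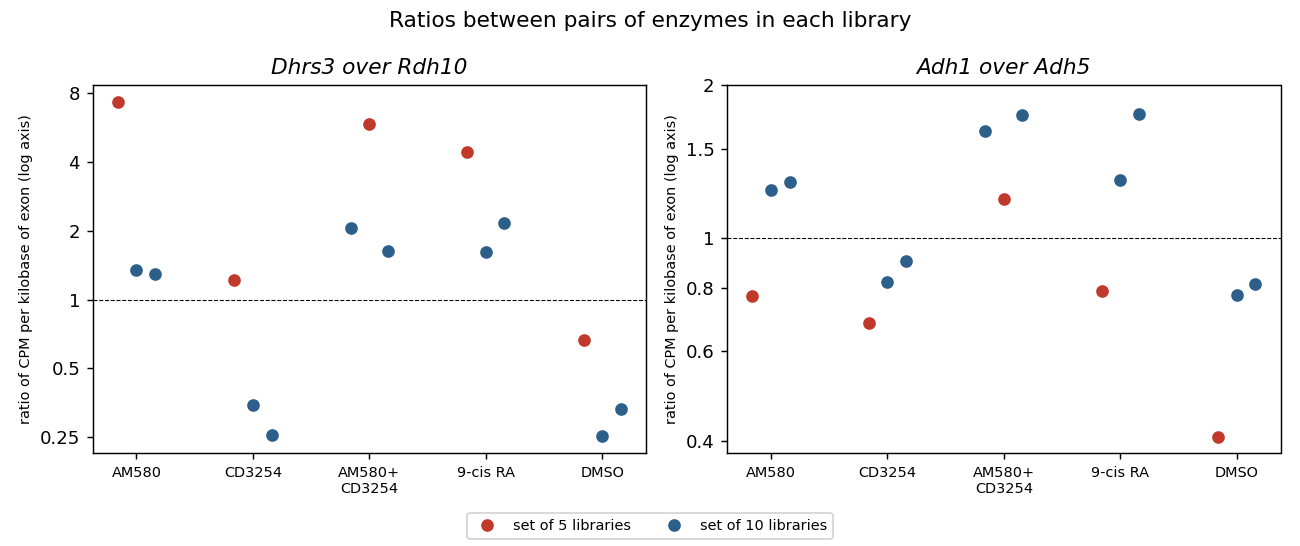
Ratio of CPM per kilobase of exon of Dhrs3 over Rdh10 and of Adh1 over Adh5 in each of the 15 libraries, on log axes, with a dashed line at 1 and colour for the library set. Dhrs3 over Rdh10 lies above 1 in all 9 libraries with a RAR ligand, and Adh1 over Adh5 lies below 1 in all libraries given CD3254 or DMSO. Where the points fall against the line depends on the exon lengths used.

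Several of the enzymes differed between the library sets within treatments. Dhrs3 was higher in the library of the set of 5 than in both other libraries of its treatment in 5 of 5 treatments, by 1.48 log2 with AM580, 1.66 with CD3254, 1.10 with the joint treatment, 0.70 with 9-cis retinoic acid and 0.77 with DMSO. Adh5 was likewise higher in 5 of 5, by 0.17 to 0.78 log2. Rdh10 was lower in 5 of 5, between 7.87 and 13.1 CPM in the set of 5 and between 14.6 and 20.4 CPM in the set of 10. Rdh13 was lower in 5 of 5, between 16.8 and 19.6 CPM in the set of 5 and between 20.4 and 28.3 CPM in the set of 10. For these last 2 genes the sets did not overlap, as for 12.6% of all genes in the lower direction, so such separation was common. In the higher direction 13.4% of all genes separated the sets. A gene that separates the sets also differs in 5 of 5 treatments, so the pattern of Dhrs3 and Adh5 was at least as common. Its own share of all genes was not counted. The sets were drawn from these counts, and no test between them is given. Adh1 showed no common direction, with differences from -0.75 log2 under DMSO to 0.06 under AM580. The summed level of the low-oxygen genes, given above, differed between the sets, and the part of these genes in the levels of Dhrs3, Adh5, Rdh10 and Rdh13 was not tested.

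**Figure D4:**
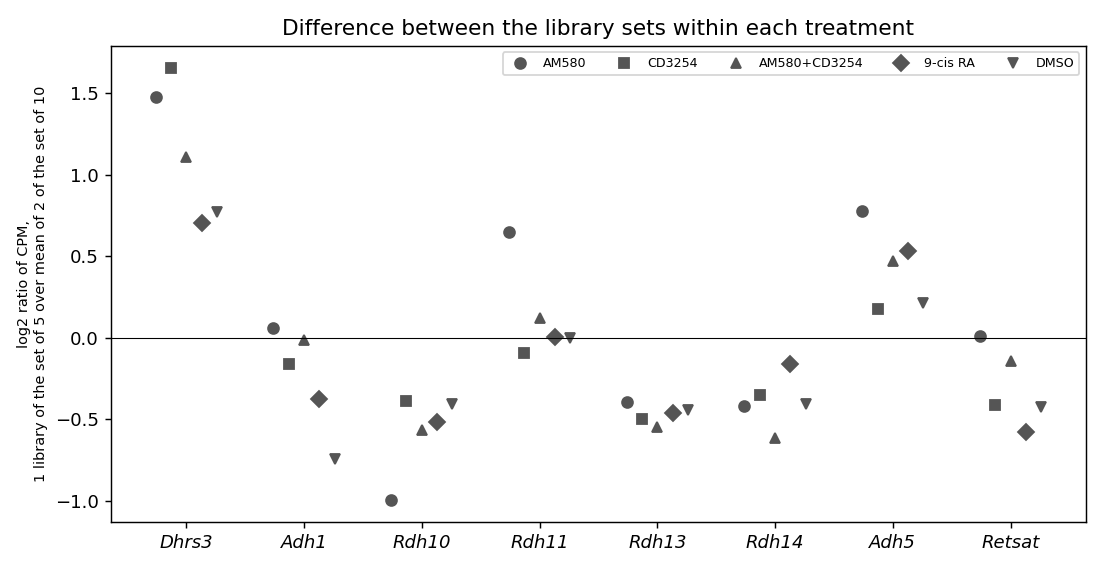
Log2 ratio of CPM in the library of the set of 5 over the mean of the 2 libraries of the set of 10, within each of the 5 treatments, for the 8 tested enzymes. All 5 points lie above 0 for Dhrs3 and Adh5 and below 0 for Rdh10, Rdh13 and Rdh14.

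The genes most like Dhrs3 over the libraries were ranked by Pearson r of log2 CPM centred within the library sets, over 15 libraries and among 13586 genes. As a description, the nearest 5 were Enpp1 (r = 0.959), Rarb (0.954), Adh1 (0.938), Itga2 (0.935) and Pim3 (0.915). For Adh1 they were Dhrs3 (r = 0.938), Bmp7 (0.929), Fam20a (0.915), Nqo2 (0.914) and Enpp1 (0.908). Each of the 2 enzymes was thus among the nearest 5 of the other. The points share the treatments, so genes that answer the same ligand correlate by construction of the series. Among the 28 pairs of the 8 tested enzymes r ran from -0.651, for Rdh10 with Rdh11, to 0.938, for Dhrs3 with Adh1, with a median of 0.176. Dhrs3 with Rdh10 gave 0.177.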

How the data were processed

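The authors deposited whole-number read counts for each Ensembl gene in 15 libraries, not normalized. Reads were handled on the mm10 build with HISAT2 2.2.1, SAMtools 1.18, HTSeq and FastQC, per the submitters' processing notes. No source used here gives the annotation release or the strand setting. Coordinates and exon lengths are those of GENCODE on GRCm38, with the exons of all transcript models of a gene merged, and 42462 of 43432 identifiers matched a symbol. Reads in the 5 categories without a gene, 18.1% to 28.6% of reads in 14 libraries and 63.0% in 9-cis retinoic acid replicate 3, stayed out. Groups follow the treatment labels. In R 4.3.3, edgeR 4.0.16 with limma 3.58.1 was used: filterByExpr left 16736 genes, libraries were scaled by TMM, and robust quasi-likelihood models were fitted to all 15 libraries, two-sided, with Benjamini-Hochberg adjustment over all genes per comparison (FDR, threshold 0.05) and standard errors derived from the F statistic. Library sets follow the sign of principal component 1 over log2 CPM, computed with a prior count of 2. The median biological coefficient of variation was 0.305 without the set term and 0.193 with it. The fit without the term was tried on simulated counts, for the joint treatment against DMSO, and these counts held no library sets. The fit with the term and the pooled RAR ligand comparison were not simulated. DESeq2 1.42.0, other filters and scalings, a replicate block and leaving out libraries were the alternatives. All 10 enzymes are named; of the other lists, genes past the threshold in any comparison or fit are named, with the whole alcohol dehydrogenase cluster and the 5 genes most like Dhrs3 and Adh1. Dhrs4, Akr1a1 and the Aldh1a genes were added after their values were seen. The enzymes and lists were chosen with earlier results of these data known.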

Additional observations from a re-analysis of the deposited data

How the results depend on the processing

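Without the library set term, 0 enzymes passed FDR 0.05 in the comparisons with DMSO and between ligands. With a RAR ligand 2 passed, beside 0.0359% of all genes. The term gave 1 with AM580, 2 with the joint treatment and 1 with 9-cis retinoic acid against DMSO, and 1 with the joint treatment against CD3254. In the same order, 0.0299%, 0.125%, 0.0299% and 0.0299% of all genes were called. The 10 libraries of the larger set alone gave the same counts of enzymes, beside 0.0179%, 0.0777%, 0.0239% and 0.0299% of all genes. DESeq2 gave 2 in each of these 4 comparisons, with 10, 19, 10 and 8 genes called in all. A filter at a mean of 1 CPM gave 1 with the joint treatment against DMSO. Shared replicate numbers were not taken to pair the libraries, since 20 of 30 same-number pairs, not all, had a correlation of deviations over 0.1. Every negative pair, at -0.681 to -0.415, held replicate 1 or 2 of the joint treatment. Pairs without these libraries ran from 0.044 to 0.815, so the numbers may still carry shared structure outside the joint treatment. Of the 15 libraries, 7 correlated best with their own number. The replicate block gave 2 enzymes with the joint treatment against DMSO, Dhrs3 and Adh1 (edgeR FDR = 0.041 and 0.0468), with 7 genes called, and changed no other count of enzymes. Leaving out 1 library each time gave 0 to 1 with a RAR ligand without the term; the cause was not tested. With the term, leaving out AM580 replicate 1 and 9-cis retinoic acid replicate 3 together, a choice made after seeing the data, gave 2 with 9-cis retinoic acid against DMSO and 2 with the joint treatment against CD3254. Counts of enzymes moved in no other case under size factors of DESeq2, no filter on low counts or fits of the compared groups only, and no called change reversed its direction in any alternative. The low level of Dhrs9 and Adh7 and the 14600962 gene reads of 9-cis retinoic acid replicate 3 limit what could be seen.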
